A study of Bos grunniens with 6 samples.

Results

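The regions described here are the m6A peaks on the most highly expressed genes of cattle-yak testis. Its members were chosen by the expression of their gene, as the listed peaks whose gene averaged 50 FPKM or more over the 3 input libraries. FPKM counts the fragments of a gene relative to the length of its transcript and the size of the library. The rule was met by 621 of 16186 listed peaks, and they lay on 436 gene identifiers. The 384 peaks on identifiers without an FPKM could not be judged by it. Because expression chose the genes, their FPKM values are given as a description.

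The cattle-yak is the hybrid of cattle and yak, and its males are sterile. Testis tissue came by castration from 3 animals aged 5 years (TES5, TES6 and TES7), which the study calls normal. Each gave 1 library of RNA pulled down with an antibody against m6A (IP) and 1 of the same poly(A) RNA before the pull-down (input). All 3 animals form 1 condition, so nothing here compares conditions. The peak list is 1 list for the group, with a position, an annotation class and a gene for each peak, and with no score and no value per animal.

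N6-methyladenosine is a methyl mark on adenosines inside mRNA. It is written by a complex built around METTL3 and METTL14, removed by FTO and ALKBH5, and read by proteins such as the YTH family, which influence the splicing, decay and translation of the marked transcripts. In mammals the mark is known to gather in long internal exons and around stop codons, and in the testis it is needed for the germ line to form sperm.

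Genes at the top of the expression range carried a listed peak less often than genes of moderate expression. Among the 1049 genes with a mean of 50 FPKM or more, 436 had at least 1 peak, 41.6% (95% interval 38.6% to 44.6%, Wilson). The same share was 41.9% over all 20953 genes with an FPKM, a set in which many genes are hardly expressed, and 67.5% over the 11095 genes with a mean FPKM from 1 to under 50. The difference from those expressed genes was -25.9 percentage points (95% interval -29.0 to -22.8, Newcombe). All intervals cover counting error only, since genes and peaks are not replicates and several peaks can share a gene.

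Above 25 FPKM the share with a peak fell from class to class. It was 70.6% (69.0% to 72.2%) for genes at 10 to under 25 FPKM and 60.2% (57.6% to 62.8%) at 25 to under 50. Above the threshold it was 48.6% (44.8% to 52.5%) at 50 to under 100, 35.6% (29.9% to 41.8%) at 100 to under 200 and 24% (16.7% to 33.2%) at 200 to under 500. Of the 52 genes at 500 or more, 8 had a peak, 15.4% (8.01% to 27.5%). Intervals of neighbouring classes above 100 overlapped. The listed transcripts were also shorter in the higher classes, though not in step with the share. Their median span over the peaks was 38031.5 bp at 10 to under 25 FPKM, 28609 bp at 25 to under 50 and 18894 bp at 50 to under 100. In the classes above it was 10807 bp, 14153 bp and 9703 bp. A span is listed only for genes with a peak, so the part that transcript length has in the falling share was not tested.

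**Figure D1:**
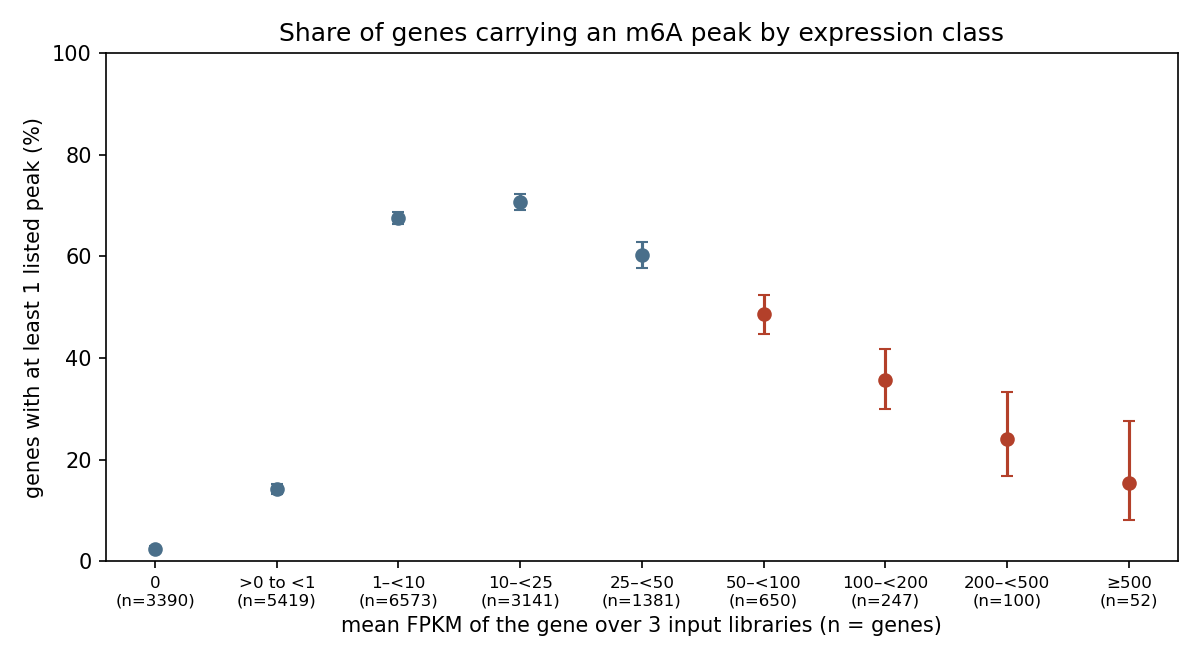
Share of genes (y axis, percent) with at least 1 listed m6A peak in each class of mean FPKM over the 3 input libraries (x axis, number of genes in brackets); points are shares and bars are 95% Wilson intervals, and the classes of at least 50 are red. The share is highest, at 70.6%, for 10 to under 25 FPKM and falls through every class to 15.4% for genes of at least 500.

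Just inside the threshold stood *CTBP1* with a mean FPKM of 50.1 and *ANGEL1* with 50.1. Just outside stood *NHSL2* with 49.96, *CPT1B* with 49.9 and *CCDC117* with 49.9. *NHSL2* was above 50 in TES5 (63.7) and TES7 (52.9) and below it in TES6 (33.3), so membership near the border depended on single animals. Of the 436 genes, 363 reached 50 in every library, 62 in 2 libraries and 11 in 1 library.

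The 436 genes took 16.8%, 16.5% and 16.5% of the FPKM sum in TES5, TES6 and TES7. All genes with a mean of at least 50 took 56.6%, 55.0% and 55.8%, so most of the sum in this range fell on genes without a listed peak. The median of the 436 means was 72.2 FPKM, 120 genes reached 100 and 8 reached 500. Between animals the median coefficient of variation of the 436 genes was 8.15% (quartiles 4.86% and 12.1%). The 613 genes of at least 50 without a peak had 9.43%. Genes with a peak at 1 to under 50 had 12.3%. These coefficients come from the same FPKM values whose mean chose the genes. The part of expression level in their differences was not tested. TES5 had the highest value of the 3 animals for 229 genes, TES6 for 87 and TES7 for 120. The FPKM sum over all genes was also highest in TES5, at 302365 against 280940 in TES6 and 285927 in TES7, and the part of this scaling in the counts was not tested. The median SD of log2(FPKM + 1) over the 3 animals was 0.12, and without TES5 it was 0.07. The second SD is over fewer animals, and the part of TES5 in the drop was not tested.

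The highest of the 436 genes was *AARD*, with 1754, 1431 and 1438 FPKM in TES5, TES6 and TES7. It had 1 peak of 578 bp on chromosome 18, from 37396307 to 37396884 of LU_Bosgru_v3.0, in the 3' UTR class. *CST8*, a cystatin of the male reproductive tract, stood at 1802, 1127 and 1205 FPKM and had 1 peak of 247 bp in the 5' UTR class (chromosome 12, 33910674 to 33910920). TES5 was the highest animal for both genes, and *AARD* was above *CST8* in TES6 and TES7 but not in TES5. The cystatin-like gene *CSTL1* lies on the same stretch of chromosome 12 and stood at 1180, 1277 and 1175 FPKM. Its peak of 297 bp (33851345 to 33851641) was also in the 5' UTR class. A further identifier with the symbol *CSTL1* was a member as well, with 408, 272 and 372 FPKM. Reads shared between such neighbouring family members could not be told apart from the FPKM values alone.

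*RPL31*, a protein of the large ribosomal subunit, stood at 896, 915 and 978 FPKM. Its peak of 1480 bp was annotated to exon 19 of 20 of another identifier, so the link between this peak and *RPL31* is the list's and not the exon's. *RPL23*, also of the large subunit, stood at 698, 782 and 781 FPKM, and its exon class peak of 3030 bp covered 69.7% of a transcript span of 4350 bp. *BUD23*, an rRNA methyltransferase needed for the small ribosomal subunit, stood at 907, 900 and 814 FPKM with a peak of 5589 bp at exon 10 of 12. These 3 genes varied by 4.60%, 6.37% and 5.91% between animals.

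*TMEM215* combined a high level with several peaks. It stood at 915, 669 and 888 FPKM and had 2 peaks in the 5' UTR class, of 1481 bp and 2596 bp, and 1 peak of 250 bp at exon 4 of 8. *HSP90B1*, the HSP90 chaperone of the endoplasmic reticulum, was nearly level in the 3 animals at 454, 456 and 447 FPKM. Its 3 peaks lay at exons 4, 7 and 13 of 18 and were 1193 bp, 4035 bp and 3051 bp wide. *DENND4C* stood at 478, 457 and 454 FPKM with a peak of 151 bp. Its listed transcript spans 4182 bp and its neighbour in RefSeq is the ribosomal protein gene *RPS6*. Whether the listed symbol names the RNA that was measured was not tested.

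*EGR2*, a zinc finger transcription factor of the immediate early response, varied more between the animals than the others in the plot of the 10 most expressed genes. It stood at 865 FPKM in TES5, 406 in TES6 and 292 in TES7, a mean of 521 ± 303 (SD, n = 3) and a coefficient of variation of 58.1%. Its only peak was 590 bp wide and lay in exon 1 of 2. A second identifier with the symbol *EGR2* had a mean of 1.34 FPKM and 2 peaks, and which of them holds the gene of that name was not tested. The coefficient was over 25% for 14 of the 436 genes. The highest was that of *C11orf71*, with 94.2, 44.2 and 23.6 FPKM, and *DHDDS*, an enzyme of dolichol synthesis, followed *EGR2* with 190, 106 and 111 FPKM. All 3 genes were highest in TES5. At the other end, *WDR13* stood at 90.8, 90.4 and 90.7 FPKM. The kinase co-chaperone *CDC37* stood at 55.1, 55.4 and 54.9, and *BRD2*, a bromodomain protein that binds acetylated histones, at 95.6, 96.3 and 95.4.

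**Figure D2:**
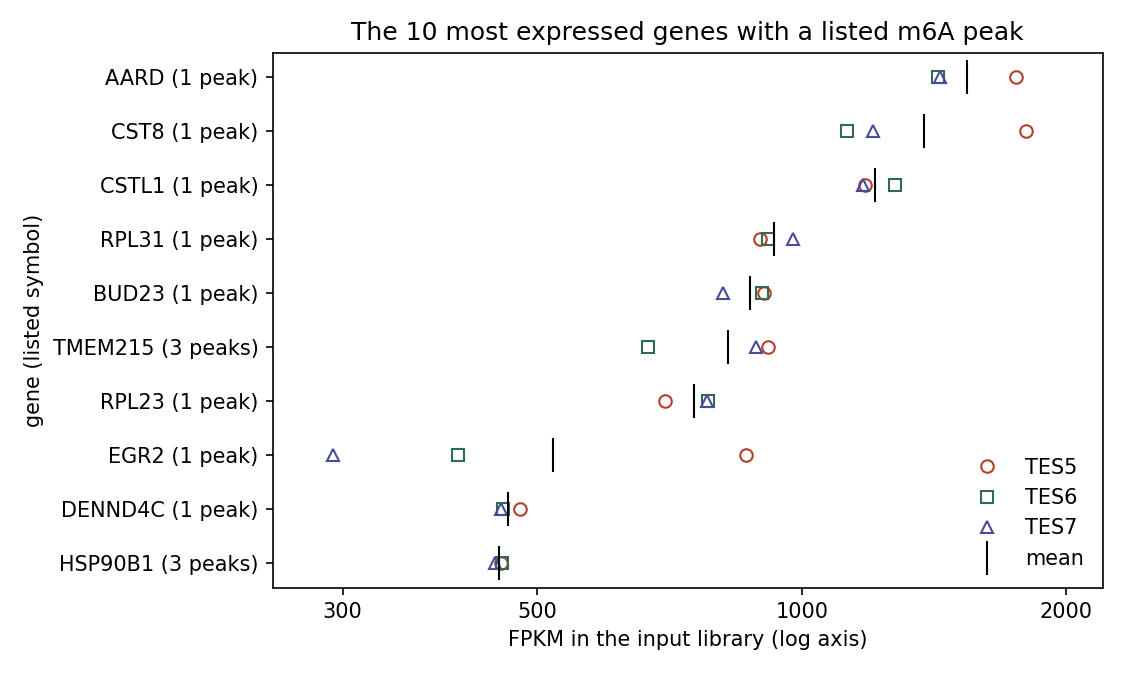
FPKM of the 3 animals' input libraries (x axis, log scale) for the 10 genes with a listed peak and the highest mean FPKM (y axis, with the number of peaks); circles, squares and triangles are the animals and the vertical tick is the mean of the 3. *EGR2* runs from 292 to 865, while the 3 values of *HSP90B1* lie between 447 and 456.

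Most of the very highest genes had no listed peak at all. Of the 10 genes with the highest mean FPKM in the table, 3 had a peak, and of the 20 highest, 4. The highest of all, ENSBGRG00000025999, stood at 7839, 5416 and 6420 FPKM without one. Symbols for genes without a peak were known for 27 of the 613 identifiers in this range, from names that cover only part of the genes. The genes named here therefore need not be the leading ones without a peak. Among the 27, the highest was *IKZF4*, with 2352, 1924 and 1903 FPKM. Its neighbour in RefSeq is the ribosomal protein gene *RPS26*, so the same doubt about the symbol holds. *SOD1*, the copper-zinc superoxide dismutase, followed with 400, 339 and 396 FPKM, and *BRAF*, a kinase of the MAP kinase pathway, stood at 285, 181 and 194 FPKM. *HEYL*, a target of Notch signalling, had a mean of 236 FPKM, *DDOST*, a subunit of the oligosaccharyltransferase, 128, and *COPE*, a coatomer subunit, 116. An absent peak says that none was listed for the group, and the level of m6A on these transcripts was not measured by these files.

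The annotation classes were split differently from those of other expressed genes. Of the 621 peaks, 382 (61.5%) fell in exons by their annotation, 178 (28.7%) belonged to the 3' UTR class and 61 (9.82%) to the 5' UTR class. On genes with a mean FPKM from 1 to under 50 the shares were 69.5%, 21.3% and 9.18% of 13952 peaks. The exon class was lower in the set, with a difference of -8.03 percentage points (-12.0 to -4.21), and the 3' UTR class was higher, with a difference of 7.39 (3.91 to 11.1). The interval of the 5' UTR class held 0 (0.64, -1.51 to 3.28). Against the nearer class of 10 to under 50 FPKM the differences were -4.96 (-9.04 to -1.003) for exons and 5.10 (1.49 to 8.94) for the 3' UTR. Within transcripts of at most 20000 bp they were -5.60 (-11.0 to -0.48) and 5.32 (0.65 to 10.4). With both limits at once, at most 20000 bp and 10 to under 50 FPKM, they were -0.19 (-5.83 to 5.23) and 1.38 (-3.58 to 6.71), and both intervals held 0.

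Counted by gene, the 3' UTR difference depended on what was counted. At least 1 peak of the 3' UTR class was found on 160 of the 436 genes, 36.7%, against 33.7% of the genes at 1 to under 50, and this difference of 2.98 points had an interval that held 0 (-1.54 to 7.72). Genes whose peaks were all in the 3' UTR class made up 23.2% (19.4% to 27.3%) against 15.5% (14.7% to 16.4%), and genes with exon peaks only 53.4% against 55.7%. At 10 to under 50 FPKM the share with 3' UTR peaks only was 17.5% (16.2% to 18.9%). A gene with 1 peak has 1 class by construction, and such genes were more common in the set (72.5% against 50.8%). The part of this in the shares was not tested. All 3 classes were found together on 3 of the genes.

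**Figure D3:**
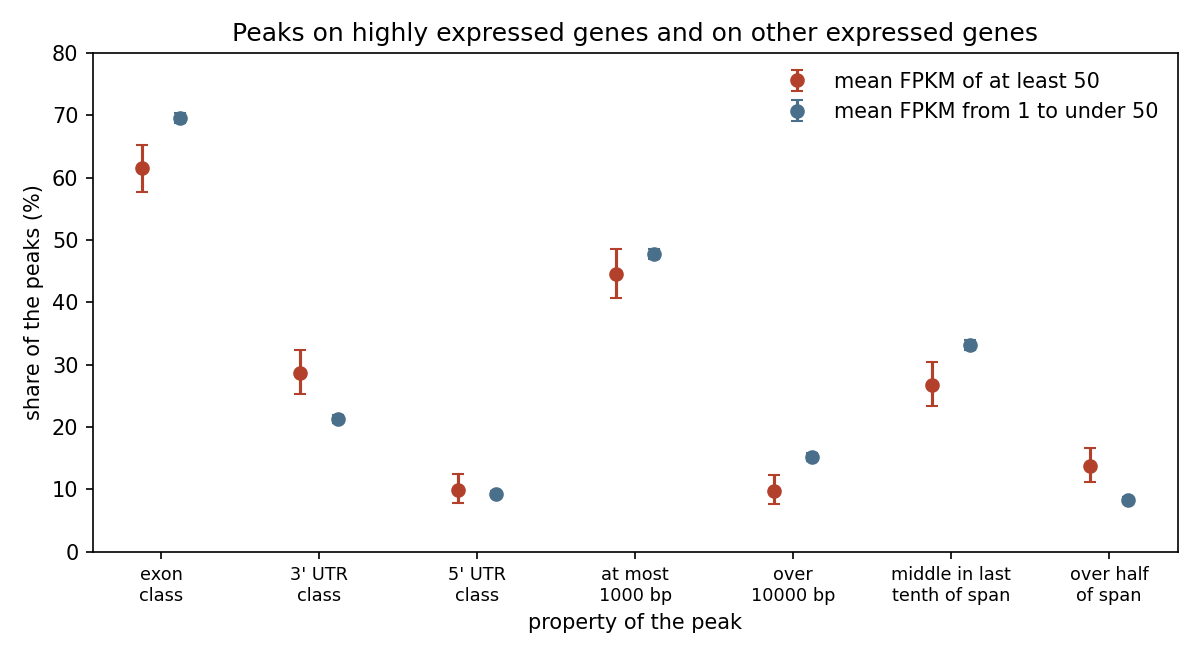
Share of peaks (y axis, percent) with each of 7 properties (x axis) among the 621 peaks on genes with a mean of 50 FPKM or more (red) and the 13952 peaks on genes at 1 to under 50 (blue); points are shares and bars are 95% Wilson intervals. The red point is lower for the exon class (61.5% against 69.5%) and higher for the 3' UTR class (28.7% against 21.3%) and for peaks wider than 50% of the transcript span (13.7% against 8.33%).

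Peak widths here are distances on the genome, introns included. The narrowest of the 621 measured 143 bp and the widest 311133 bp. Their median was 1339 bp, with the middle of the distribution between 349 bp and 3730 bp (lower and upper quartile). At 1 to under 50 FPKM the median was 1179 bp and the quartiles were at 340 bp and 5338 bp. The upper quartiles lay further apart than the lower ones. Peaks over 10000 bp were 9.66% of the set and 15.1% of the others (difference -5.48, -7.65 to -2.84), while peaks of at most 1000 bp were 44.6% and 47.7% (-3.11, -7.06 to 0.91). In transcripts of at most 20000 bp the difference in peaks over 10000 bp turned to 2.43 points (0.37 to 5.41), and over 50000 bp it was -8.76 (-14.5 to -0.73). By class, the medians in the set were 1568 bp for exon peaks, 749 bp for 3' UTR peaks and 1864 bp for 5' UTR peaks.

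These widths go with shorter transcripts. The listed transcripts of the 621 peaks had a median span of 16079 bp, against 40198 bp for the others. Within transcripts of over 5000 to 20000 bp the peaks of the highly expressed genes were the wider ones, with a median of 1249 bp against 741 bp, and 114 of 250 were at most 1000 bp wide against 1734 of 3050 (difference -11.3 points, -17.6 to -4.81). Against 10 to under 50 FPKM that difference was -6.00 points (-12.6 to 0.75), with an interval that held 0. In transcripts of over 20000 to 50000 bp the medians were 2581 bp and 1405 bp, and the difference in the share of at most 1000 bp was -16.8 points (-23.4 to -9.17), or -8.75 (-15.6 to -0.95) against 10 to under 50 FPKM. In transcripts of at most 5000 bp the median of 486 bp was above the 443 bp at 1 to under 50 FPKM and below the 543 bp at 10 to under 50. Over 50000 bp the order of the medians turned, at 1517 bp and 2404 bp, and the share did not differ beyond its interval (1.38, -7.37 to 10.8). A peak covered a median of 10.1% of its transcript's span in the set and 4.65% in the others, and 13.7% against 8.33% were wider than 50% of the span (5.36, 2.83 to 8.32). Within transcripts of at most 20000 bp this last difference was 2.02 (-1.78 to 6.48).

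**Figure D4:**
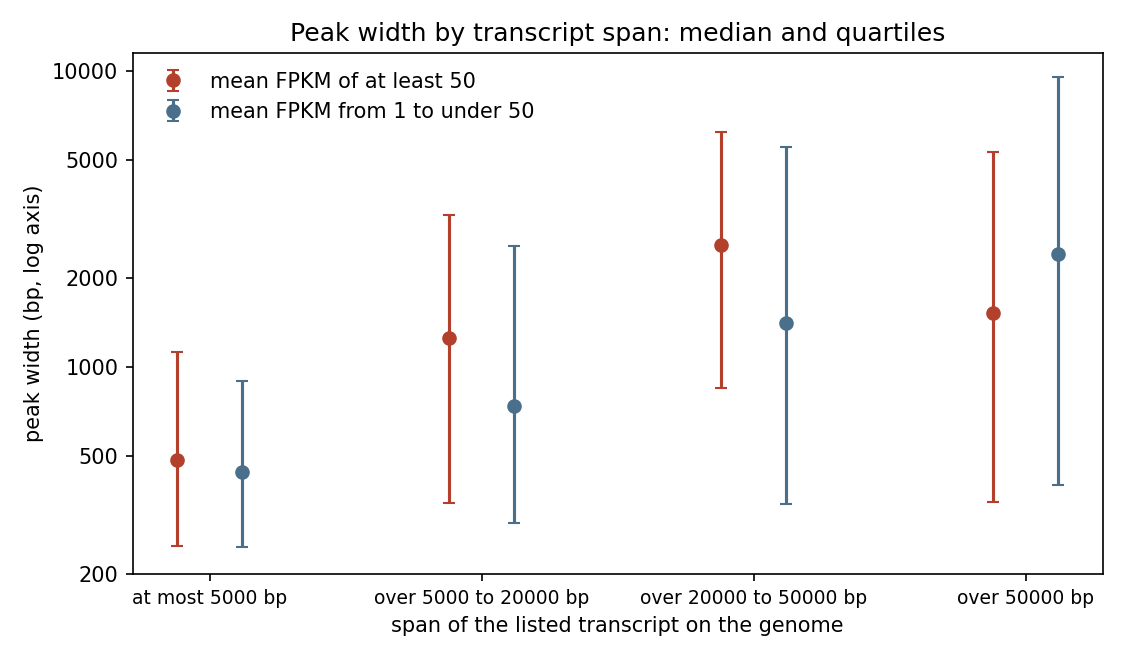
Peak width (y axis, bp, log scale) by the span of the listed transcript (x axis) for peaks on genes with a mean of 50 FPKM or more (red) and from 1 to under 50 (blue); points are medians and bars run from the lower to the upper quartile. The red median is above the blue one in the 3 shorter span classes (for over 20000 to 50000 bp, 2581 bp against 1405 bp) and below it over 50000 bp.

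The widest peak of the set was listed for *TIMP3*, an inhibitor of matrix metalloproteinases, at 89.4, 96.2 and 112 FPKM. It runs over 311133 bp of chromosome 5 (33080329 to 33391461), 502% of the transcript's span of 62035 bp, and contains that transcript whole. *ARMH4* followed with a peak of 137267 bp, 88.0% of its span, beside 2 exon peaks of 301 bp and 5482 bp. The 118460 bp peak of *PTN*, the growth factor pleiotrophin, covered 99.5% of its span, at 181, 194 and 174 FPKM. The spread of m6A inside such a peak cannot be read from the list. Besides *TIMP3*, the peaks of *KMT2C* and *PLCL2*, named here after their values were seen, contained their whole listed transcript, 3 of 621 in all. The narrowest peaks were those of *C1orf43* (143 bp, exon 7 of 7), *CLIP1* (144 bp, exon 6 of 6) and *STUB1* (145 bp). *STUB1* encodes a ubiquitin ligase that works with chaperones, and its peak was annotated to an exon of another identifier. That was so for 19 of the 382 exon class peaks, 4.97%, against 3.39% in the comparison (1.58, -0.22 to 4.27).

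Exon peaks of the set lay in the last exon in 48 of 382 cases, 12.6%, against 17.3% for the peaks at 1 to under 50 FPKM (-4.74, -7.79 to -0.96). If every exon of each transcript were equally likely, 18.0% of the 382 would fall in the last one, and 16.2% of the comparison peaks. Each peak has 1 class, so peaks of the 3' UTR class are not counted here. The share therefore does not show whether peaks avoid the last exon. In transcripts with at least 3 exons, a selection made after the data were seen, the share was 6.98% against 11.2% (-4.19, -6.54 to -0.94). Over all exon numbers, the difference was -16.6 points (-21.4 to -10.8) in transcripts of at most 20000 bp, and over 50000 bp its interval held 0 (3.49, -2.42 to 13.5). In transcripts of at most 5000 bp it was -28.3 (-38.3 to -16.2), where many comparison peaks lie on transcripts of 1 or 2 exons. With at least 3 exons it was -20.3 there, from 2 of 40 peaks against 101 of 399 (-26.1 to -8.13). Against the peaks at 10 to under 50 FPKM the difference over all transcripts was -0.48 (-3.65 to 3.37), an interval that held 0. Within transcripts of at most 20000 bp it was -8.99 (-14.1 to -2.90) against the same class, and with at least 3 exons -3.84 (-7.90 to 1.57).

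Along the span from transcription start to end, the middle of a peak lay in the last 10% or beyond the end for 166 of 621 peaks. This was 26.7% against 33.1% for the comparison (-6.38, -9.80 to -2.68), and against 10 to under 50 FPKM the difference was -5.77 (-9.33 to -1.95). The first 10% of the span or the stretch before it held 9.82% of the middles, and the difference of -1.64 points had an interval that held 0 (-3.81 to 1.01). For the last 10%, the difference from 1 to under 50 FPKM was -4.94 (-9.23 to -0.09) in transcripts of at most 20000 bp. Its interval held 0 in those of at most 5000 bp (-2.12, -7.45 to 5.82) and in those over 50000 bp, where it was 1.69 (-6.92 to 11.1). The plot of positions along the transcript shows the rise towards the end in both sets.

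**Figure D5:**
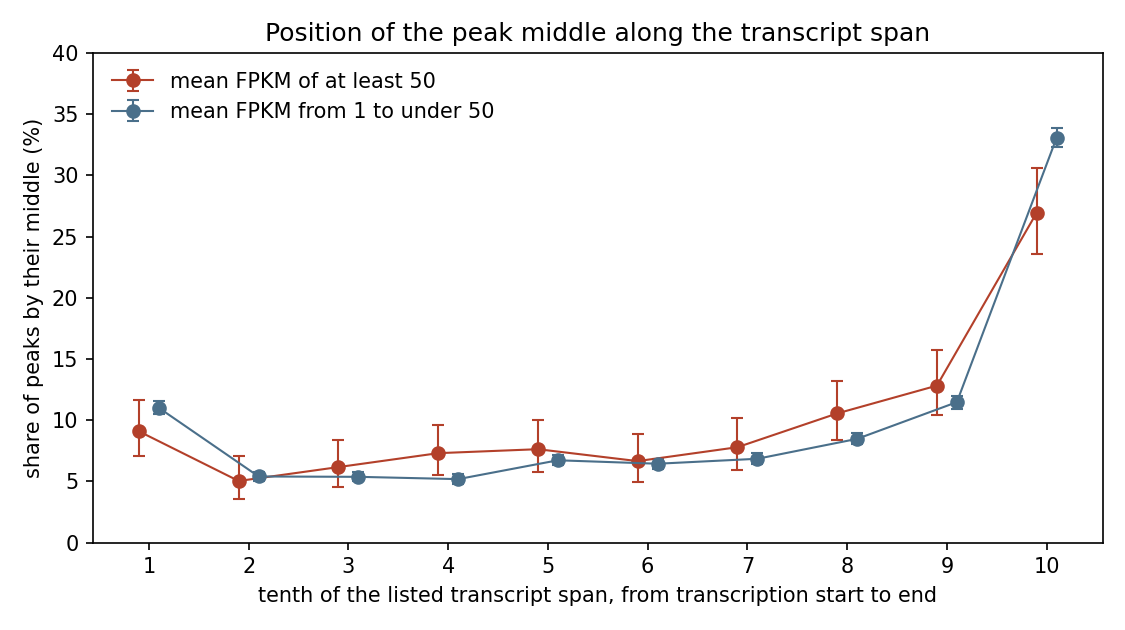
Share of peaks (y axis, percent) whose middle lies in each of 10 equal parts of the listed transcript span, counted from transcription start to end (x axis), for peaks on genes with a mean of 50 FPKM or more (red, 616 peaks) and from 1 to under 50 (blue, 13830 peaks) that overlap their transcript; bars are 95% Wilson intervals and middles outside the span count with the nearest part. Part 10 holds 26.9% of the red and 33.1% of the blue peaks.

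Most of the genes carried a single peak. Of the 436 genes, 316 (72.5%, 68.1% to 76.5%) had 1 peak, 74 had 2, 35 had 3, 4 had 4, 6 had 5 and 1 had 6. At 1 to under 50 FPKM 50.8% of the genes with a peak had 1 (difference 21.6, 17.1 to 25.8). Within each class of transcript span the difference was also above 0. It was 12.4 points (2.73 to 19.1) for spans of at most 5000 bp, 15.2 (8.32 to 21.2) for over 5000 to 20000 bp, 15.7 (5.83 to 24.5) for over 20000 to 50000 bp and 19.2 (6.69 to 30.9) over 50000 bp.

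*SON*, a scaffold protein of nuclear speckles, had the most peaks, with 5 exon peaks and 1 peak of the 3' UTR class. Its FPKM was 52.7, 53.8 and 62.7. Its exon peaks lay side by side on chromosome 1 between 37201279 and 37212323, with widths from 599 bp to 3879 bp. *SF3B1*, a core component of the U2 snRNP, had 4 exon peaks and 1 peak of 11523 bp in the 5' UTR class at 57.5, 74.1 and 76.1 FPKM. *AKAP12*, an anchoring protein for protein kinase A, had 5 exon peaks, all in exons 3 and 4 of 4, and each covered 0.1% to 2.0% of the span of 128773 bp. *HSP90AB1*, the cytosolic HSP90, had 3 peaks of the 3' UTR class and 2 exon peaks at 215, 204 and 230 FPKM. One of the exon peaks belonged to another identifier. The 5 peaks of *SURF1* were listed for transcripts of up to 181571 bp, its neighbour *RPL7A* was a member too, and 2 of its exon peaks belonged to other identifiers.

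Symbols are known for nearly all genes with a peak and for few without one. The gene lists were therefore counted over identifiers with a peak, of which 436 of 8775 (4.97%) were members overall. Among these the FPKM rule alone decides membership, so a list's share describes the expression of its genes and not their m6A. Cytosolic ribosomal proteins had the highest share, with 7 members of 9 identifiers. Besides *RPL31* and *RPL23* they included *RPS3A*, with 203, 262 and 244 FPKM and a peak of 919 bp at exon 4 of 6. *RPL7A* followed with 211, 173 and 189 FPKM and a 3' UTR peak of 324 bp. The 8 peaks of this list were 4 in exons and 4 in the 3' UTR, with none in the 5' UTR. Translation factors had 6 members of 34. *EIF4G2*, a relative of the scaffold eIF4G, stood at 231, 256 and 257 FPKM with 2 exon peaks, and *EIF5*, which acts in start codon selection, at 73.4, 80.3 and 81.6 FPKM. *EIF3M* and *EIF3B* of the eIF3 complex had means of 83.8 and 62.7 FPKM.

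Chaperones were the list with the largest number of members after RNA-binding proteins, 14 of 60, and they carried 28 peaks, 16 in exons, 11 in the 3' UTR and 1 in the 5' UTR. All HSP90 genes named so far belong here. *HSP90AA1*, the inducible cytosolic form, stood at 324, 210 and 265 FPKM, more spread than *HSP90AB1* and *HSP90B1*, and had peaks at exons 4 and 9 of 14. *P4HB*, the protein disulfide isomerase that also serves collagen prolyl hydroxylase, stood at 218, 224 and 251 FPKM with a 3' UTR peak of 1140 bp.

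Splicing and other RNA-binding proteins had 21 members of 91 and 37 peaks, 28 of them in exons. *HNRNPF* stood at 167, 160 and 167 FPKM with a peak of 1108 bp in exon 3 of 4, and *HNRNPAB* at 167, 158 and 158 FPKM with 2 peaks. *PABPC1*, the cytoplasmic poly(A)-binding protein, stood at 159, 136 and 123 FPKM. Its peak of 4484 bp was annotated to exon 3 of 14. The RNA helicase *DDX5* had 3 exon peaks, at exons 2, 9 and 12 of 13, and 126, 141 and 141 FPKM.

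Among proteins of mitochondrial respiration 7 of 18 identifiers were members, each with 1 peak. The symbol *ATP5F1B*, a catalytic subunit of the ATP synthase, belonged to 2 of them, with means of 126 and 67.2 FPKM. *ATP5IF1*, the inhibitor of the same enzyme, was highest in TES5, at 140, 107 and 85.5 FPKM, with a peak over 95.4% of its 1935 bp. *NDUFA10*, a subunit of complex I, was steadier at 93.1, 88.7 and 83.4 FPKM. Proteasome and ubiquitin genes had 7 members of 50. They included *SQSTM1*, an autophagy receptor for ubiquitylated cargo, at 133, 118 and 110 FPKM, and the proteasome ATPases *PSMC3* (87.7, 87.3 and 88.9 FPKM) and *PSMC2* (73.9, 88.5 and 73.2 FPKM).

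Cytoskeletal genes had 5 members of 24, led by the myosin light chains *MYL6* at 199, 180 and 189 FPKM and *MYL12A* at 111, 102 and 119 FPKM. The Arp2/3 subunits *ARPC2* and *ARPC3* had means of 79.8 and 64.6 FPKM. Extracellular matrix genes had 5 members of 41. *SPARC*, a secreted collagen-binding protein, stood at 403, 375 and 396 FPKM with a 3' UTR peak of 201 bp and a 5' UTR peak of 16457 bp that reaches outside the listed transcript. *COL6A2*, a collagen VI chain, stood at 77.5, 96.3 and 101 FPKM with 2 exon peaks, and the proteoglycan *BGN* at 72.9, 69.6 and 87.3 FPKM with a 3' UTR peak of 196 bp. TES7 was the highest animal for *TIMP3*, *COL6A2* and *BGN* but not for *SPARC*.

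Steroid and cholesterol synthesis had 1 member of 16, *STAR*, which carries cholesterol into mitochondria for steroid synthesis. It stood at 100, 108 and 112 FPKM and had 3 peaks. The pair of 3' UTR peaks of 299 bp and 150 bp lay within the last 10% of its span, and the exon peak of 3188 bp was annotated to exon 3 of 7. Among antioxidant enzymes 2 of 11 were members, the peroxiredoxin *PRDX6* at 92.3, 102 and 96.5 FPKM and the glutathione transferase *GSTA4* at 93.9, 63.4 and 86.5 FPKM. Immediate early and stress genes had 3 members of 22. *DDIT4*, an inhibitor of mTORC1, was level at 69.1, 70.4 and 69.7 FPKM, unlike *EGR2*, and *MCL1*, an anti-apoptotic BCL2 relative, had 3 peaks at 50.4, 48.3 and 52.8 FPKM.

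Histone and chromatin genes had 3 members of 12, namely *CBX5*, *PTMA* and *H2AJ*, with means of 118, 80.9 and 63.3 FPKM. The RefSeq neighbour of *CBX5* is *HNRNPA1*, its listed transcript spans 4430 bp, and the symbol is uncertain in the same way as that of *DENND4C*. Lysosomal genes had 2 members of 15, the cathepsins *CTSA* and *CTSZ*, with means of 68.5 and 59.7 FPKM. Of the 14 identifiers of m6A writers, erasers and readers with a peak, *ALKBH5* alone was a member. This demethylase stood at 85.9, 73.0 and 73.2 FPKM and had a peak of 447 bp at exon 1 of 4 and a peak of 199 bp in the 3' UTR class. Together the 14 lists held 84 of the 436 genes.

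Testis is a mixture of cells, and in bulk tissue fewer cells of a type cannot be told apart from less RNA per cell. Markers were again counted among identifiers with a peak. Members were found on lists of somatic cells, though not on that of endothelial cells (0 of 6 identifiers). They were *TF*, the iron carrier transferrin, as 1 of 10 Sertoli identifiers, and *STAR* as the only identifier found for 15 Leydig symbols. *ACTA2*, *TAGLN* and *MYL9*, contractile proteins of peritubular myoid and smooth muscle cells, were 3 of 10. *TF* stood at 87.3, 62.5 and 94.0 FPKM, *ACTA2* at 226, 254 and 232, *TAGLN* at 77.9, 89.2 and 95.8 and *MYL9* at 67.0, 80.8 and 81.6. *CD74*, the invariant chain of antigen-presenting cells, was 1 of 7 immune identifiers, at 377, 353 and 369 FPKM. It took most of the summed level of that list, which was 386 to 412 FPKM, and its neighbour in RefSeq is *RPS14*. A count of 1 in lists of 10 and 7 identifiers is near the 4.97% of members among all identifiers with a peak.

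No germ cell marker with a peak reached the threshold. With 4.97% of all identifiers with a peak as members, a count of 0 in lists this short is near that background. It holds for 6 identifiers of spermatogonia, 12 of spermatocytes and 2 of spermatids, and also for 6 of endothelial cells, while no red blood cell marker was found among the genes with a peak. Symbols were found for 6 of the 15 spermatogonial, 7 of 12 spermatocyte, 1 of 14 spermatid, 9 of 21 Sertoli and 10 of 13 myoid and smooth muscle markers. For Leydig cells it was 1 of 15, for immune cells 7 of 13 and for endothelial cells 6 of 10. The sums that follow run over different numbers of genes and cannot be ranked between cell types. The summed level was 53.3 to 59.2 FPKM for spermatogonia, 83.9 to 130 for spermatocytes and 20.5 to 38.5 for spermatids, 293 to 310 for Sertoli cells and 462 to 532 for myoid and smooth muscle cells. The spermatid sum came from 1 symbol alone, *HSPA1L*, which is also on the chaperone list. By itself it does not show that spermatids were present. In the study's histology the germ cells were mainly spermatogonia, with few spermatocytes. TES5 had the highest sum of spermatocyte markers, 130 FPKM against 83.9 in TES6 and 85.5 in TES7, and it was also the animal with the highest value for 229 members and the highest FPKM sum. The part of cell mixture or scaling in those values was not tested.

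By chromosome, 49 of the 621 peaks lay on each of 19 and 20, 43 on 2, 39 on 3, 30 on X and 3 on Y. The share was above that of the comparison for 19 (difference 2.40, 0.49 to 4.82), 2 (2.31, 0.53 to 4.61), 20 (2.05, 0.14 to 4.47) and X (1.63, 0.17 to 3.63). It was below it for 11 (-2.18, -3.11 to -0.69), 15 (-1.40, -1.92 to -0.30) and 23 (-0.96, -1.20 to -0.20). These intervals are not adjusted over the chromosomes. The listed transcript of another gene with a peak, on the opposite strand, lay under 19 of the 621 peaks, 3.06% against 1.55% (1.51, 0.40 to 3.19). The list does not say from which strand the reads of these peaks came. On the same strand this was so for 0 of the 621 peaks and for 91 of the 13952 comparison peaks (-0.65 points, -0.80 to -0.03).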

How the data were processed

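Testis RNA of 3 cattle-yaks was measured by m6A MeRIP-seq (IP and input, 6 libraries). The authors trimmed reads with Trimmomatic, removed rRNA reads with SortMeRNA and aligned with HISAT2 (version 2.0.4 in the submitters' processing notes). They called peaks with MeTDiff (fragment length 200, p cutoff 0.01, FDR cutoff 0.05, fold at least 1.5) and annotated them with ChIPseeker on LU_Bosgru_v3.0 (Ensembl release 99). The deposited FPKM values were computed by the authors for the input libraries. The program and the strand setting are not given in the sources used here. FPKM values keep no read numbers, so the depth behind a gene is unknown here and no count model was used.

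Peaks were joined to genes by identifier. Shares have Wilson and differences Newcombe 95% intervals (counting error only), and no p-value was computed, since peaks and genes are not replicates and there is 1 condition. The scripts ran on Python 3.11.15 with SciPy 1.17.1, pandas 2.3.3, numpy 2.4.6 and, for plots, matplotlib 3.10.9. The interval and merging code was tested on simulated data. Samples were grouped by their labels, which place all 3 animals in 1 group. The animals are separate individuals.

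Genes were named by rule: the 10 highest members and the 10 highest genes with a known symbol and no peak, those with the most peaks, with the 3 widest and 3 narrowest peaks, with the 3 largest and 3 smallest coefficients of variation, the 3 nearest the threshold on each side, and up to 4 members of each of 14 gene lists and 9 marker lists. Some genes that meet the rule are not reported here. The members and lists were chosen with earlier results of these data known. Symbols came from the peak list and from 842 names in a part of a supplementary table of the study. RefSeq genes of assembly Bosgru_T2T1.0 served only for names and neighbours, with 417 of the 436 member symbols found. A genome of the build was not used here, so sequences, the RRACH motif and distances to stop codons were not analysed.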

Additional observations from a re-analysis of the deposited data

How the results depend on the processing

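No paired analysis was possible because the listed peaks are common to all animals and the expression values used here are those of input libraries alone. Of 181 alternative values for 16 results, 141 were counted as kept. Of the others, 36 moved or changed in whether the interval held 0, and 4 differences changed sign. A difference was kept if its sign and whether its interval held 0 stayed the same, whatever its size. The last-exon difference went from -4.74 points to -16.6 in transcripts of at most 20000 bp and still counted as kept. A share was kept if it stayed within the interval of the main result. The 425 alternative means of 85 named identifiers stayed within 1 SD, which leaving out 1 of 3 animals or rescaling could hardly change. The cause of the following changes was not tested, except where fewer or more peaks enter by construction. With a threshold of 25, the set held 1986 peaks on 1268 genes, 52.2% of the genes in range had a peak, 64.4% of genes with a peak had 1, 65.7% of peaks were in the exon and 24.3% in the 3' UTR class, and the difference in peaks of at most 1000 bp was -5.01 points. With a threshold of 100, there were 163 peaks on 120 genes, 30.1% of genes had a peak and 76.7% of those with a peak had 1. The median width was 868 bp and 52.8% were at most 1000 bp wide. The difference for that width changed sign, from -3.11 points to 5.24. Those for the 3' UTR (4.85) and the last exon (-7.30) then had intervals that held 0. With transcripts of at most 20000 bp, there were 351 peaks on 277 genes, 79.4% with 1 peak, a median width of 867 bp, 53.6% of at most 1000 bp (difference -9.53) and 17.1% of exon peaks in the last exon. Keeping only the peaks up to 1000 bp wide, the exon class held 54.9%, the 3' UTR class 36.5% and the last exon 30.9% of exon peaks (difference -5.25). With 1 value per gene, the classes were found on 67.4%, 36.7% and 12.6% of genes (differences 2.98 for the 3' and -2.43 for the 5' UTR) and peaks of at most 1000 bp on 51.1% (-9.70). Against 10 to under 50 FPKM, the differences were -0.14 for the 5' UTR, 3.27 for at most 1000 bp and -0.48 for the last exon. Against all peaks under 50, that for at most 1000 bp was -5.07. Leaving out 1 animal moved it between -4.08 (without TES7, when its interval left 0 out) and -3.30. In transcripts with at least 3 exons, chosen after seeing the data, the last exon held 6.98%. Without TES5 the median SD between animals on the log2 scale was 0.07 in place of 0.12, over fewer animals. The list has no scores, so no stricter peak threshold could be tried.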

Other observations

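The pathway column of the peak list names a KEGG pathway for 179 of the 436 genes and for 2547 genes with a peak in all. These pathways were looked at after their values were seen, and no test was made. Among genes with a peak the FPKM rule alone decides membership, so these shares describe expression and not m6A. Ribosome was named for 16 members, 8.94% of those with a pathway, against 1.85% of all genes with one, and 34.0% of the 47 genes of that pathway with a peak were members. Protein processing in endoplasmic reticulum was named for 13 members (28.3% of 46 genes) and RNA transport for 12 (20.7% of 58). The pathway with the most members, Herpes simplex virus 1 infection with 30, was less common among members (16.8%) than among all genes with a pathway (26.0%). That entry is known to be filled by zinc finger genes.

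The listed symbols of several members belong to genes that lie beside a ribosomal protein gene in RefSeq, as for *DENND4C*, *CD74* and *SURF1* above. This was noticed in the data and then counted. It held for 14 of 410 member genes (3.41%) and for 63 of 7126 genes with a peak at 1 to under 50 FPKM (0.884%), a difference of 2.53 points (95% interval 1.14 to 4.77). Further examples are *ZWILCH* beside *RPL4*, with a mean of 266 FPKM and a listed span of 5628 bp, and *PTPN11* beside *RPL6*, with 240 FPKM and 3893 bp. Other members stood beside further abundant genes, among them *MUS81* beside *CFL1*, *SLC34A3* beside *TUBB4B* and *NAPRT* beside *EEF1D*, all chosen after their values were seen. Whether these identifiers carry the RNA of the listed gene or of its neighbour was not tested, since no annotation of the build was used here.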
